A study of Homo sapiens with 12 samples.

Results

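The genes described are 10 mucin genes, MUC2, MUC3A, MUC4, MUC5AC, MUC5B, MUC6, MUC7, MUC12, MUC16 and MUC17, taken by symbol from the 57773 genes of the deposited table. All 10 were found. They were chosen by their values in extracellular vesicles (EVs), as genes with high deposited values there, so their levels in EVs against cells are a description and carry no test. HEK293 cells, a human embryonic kidney line, were transfected for 48 h with 4EC1, the vector set of this system for loading mRNA into EVs, and all 12 libraries come from such cells. The groups were EVs of hypoxia cultures, EVs of normoxia cultures, hypoxia cells and normoxia cells, with 3 libraries each and 24 h in the hypoxia chamber for the hypoxia groups. Untransfected cells were not analysed here. Whether the 3 libraries of a group stem from different cultures is not said in the labels, and the p-values then cover the spread between these libraries only, which may be technical.

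Mucins are large glycoproteins whose core carries dense chains of O-linked sugar on stretches rich in proline, threonine and serine, encoded by tandem repeats in a few long exons. Gel-forming mucins (MUC2, MUC5AC, MUC5B, MUC6) are secreted and polymerise into mucus. Membrane mucins (MUC3A, MUC4, MUC12, MUC16, MUC17) stay anchored in the apical membrane of epithelia. MUC7, a small secreted mucin of saliva, belongs to neither class. A kidney-derived line in culture is no mucus-producing tissue. Of the marker lists of goblet, gastric mucous and airway or salivary cells, with 9, 6 and 8 genes in the table, none had a gene with a mean of at least 10 in either cell group, while the 7 HEK293 markers in the table all did.

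Library totals, recovered as whole reads from the deposited values, were 3259453 to 6129782 reads in hypoxia EVs, 5266244 to 7001767 in normoxia EVs and 18059381 to 23400813 in cells. The deposited values are counts divided by a single factor per library, and 3 reads, the most that a count of 0 allows, are 4.01 to 7.57 units in EVs and 1.44 to 1.65 in cells. Read densities are given as RPKM, scaled to the length of annotated exon and to the reads counted in the library, since the exon length of the members runs from 2798 bases (MUC7) to 43830 bases (MUC16).

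The repeats themselves are shown for 5 members, chosen because MUC4 and MUC6 had the highest read density in EVs, MUC17 the largest tandem share with a low density, MUC5AC the shortest unit and MUC7 the smallest repeat share. The sequences are neighbouring copies in the longest annotated transcript of GENCODE release 29 (GRCh38), 5′ to 3′ on the gene's strand. Capitals in the second copy mark bases that differ from the first. All of them lie in annotated coding exons.
MUC4 copy 1, chr3:195785074-195785121, minus strand, exon 2: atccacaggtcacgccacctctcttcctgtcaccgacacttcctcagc
MUC4 copy 2, chr3:195785026-195785073: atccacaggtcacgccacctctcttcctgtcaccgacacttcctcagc
MUC5AC copy 1, chr11:1185653-1185676, plus strand, exon 31: ctcctacaaccagcacaacctctg
MUC5AC copy 2, chr11:1185677-1185700: ctcctacaaccagcacaacctctg
MUC7 copy 1, chr4:70481237-70481305, plus strand, exon 4: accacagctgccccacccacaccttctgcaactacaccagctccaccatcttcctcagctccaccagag
MUC7 copy 2, chr4:70481306-70481374: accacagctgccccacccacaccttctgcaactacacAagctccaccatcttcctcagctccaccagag
MUC6 copy 1, first 100 bases, chr11:1017534-1017633, minus strand, exon 31: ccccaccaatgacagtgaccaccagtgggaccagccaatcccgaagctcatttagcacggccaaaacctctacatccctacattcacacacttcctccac
MUC6 copy 2, first 100 bases, chr11:1017027-1017126: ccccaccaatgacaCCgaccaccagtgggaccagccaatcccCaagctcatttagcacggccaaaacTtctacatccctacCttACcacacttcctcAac
MUC17 copy 1, first 100 bases, chr7:101033238-101033337, plus strand, exon 3: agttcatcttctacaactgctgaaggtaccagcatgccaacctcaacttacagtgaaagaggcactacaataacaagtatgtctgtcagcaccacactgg
MUC17 copy 2, first 100 bases, chr7:101033415-101033514: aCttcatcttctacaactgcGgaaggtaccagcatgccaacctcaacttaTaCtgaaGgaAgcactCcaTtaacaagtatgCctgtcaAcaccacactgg
The pairs for MUC4 (unit of 48 bases) and MUC5AC (24 bases) were identical. MUC7 (69 bases) differed at 1 base, MUC17 (177 bases) at 13 and MUC6 (507 bases) at 27 over the whole unit. A short read from the inside of such a stretch can fit several copies of the same gene, and how such reads were counted was not stated.

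All 10 mucin genes had higher deposited values in every one of the 6 EV libraries than in any of the 6 cell libraries. So did 19.8% of the 24171 genes with a mean of at least 10 over the 12 libraries, and nothing is read from the members' count, since they were chosen for high EV values. The 9 members other than MUC7 averaged 18.2 to 45.7 times their cell value in hypoxia and 16.1 to 52.0 times in normoxia. Together the 10 genes took 0.144% ± 0.007 of the reads in hypoxia EVs, 0.0710% ± 0.0160 in normoxia EVs, 0.00435% ± 0.00097 in hypoxia cells and 0.00256% ± 0.00022 in normoxia cells (SD, n = 3 each). MUC4 and MUC6 supplied 52.2%, 60.7%, 40.8% and 43.0% of those reads in the same groups. In bulk libraries, more cells that hold a transcript and more transcript per cell cannot be told apart.

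MUC4, a membrane mucin of airway and other epithelia that is known to bind the receptor ERBB2, lies at chr3:195746765-195812277 on the minus strand. It had 4618, 4781 and 4416 units in hypoxia EVs and 3418, 4075 and 3575 in normoxia EVs, against 147, 92.7 and 83.4 in hypoxia cells and 77.5, 73.3 and 62.1 in normoxia cells. The EV and cell libraries were far apart, and within EVs every hypoxia library was above every normoxia library. Over all libraries the EV mean was 46.5 times the cell mean.

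MUC16, the membrane mucin that carries the CA125 antigen, spans chr19:8848844-8981342 on the minus strand. Its values were 2287, 2325 and 2409 in hypoxia EVs and 435, 1222 and 1265 in normoxia EVs. In cells they were 129, 91.1 and 103 in hypoxia and 58.9, 75.0 and 47.2 in normoxia. Hypoxia and normoxia did not overlap in EVs or in cells, and 1 normoxia EV library lay well below the other two. MUC16 was second to MUC4 by deposited value in hypoxia EVs but, with its long exons, behind MUC6 and MUC3A by RPKM.

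Among the intestinal membrane mucins of chromosome 7, MUC3A (chr7:100949555-100968346) had 671, 685 and 769 units in hypoxia EVs and 433, 461 and 459 in normoxia EVs, against 41.1, 43.8 and 32.0 in hypoxia cells and 21.6, 22.6 and 25.0 in normoxia cells. Its hypoxia libraries were above its normoxia libraries in both compartments. MUC12 (chr7:100969623-101018949) averaged 579 ± 108 in hypoxia EVs, 477 ± 89.3 in normoxia EVs, 31.3 ± 5.6 in hypoxia cells and 23.0 ± 3.6 in normoxia cells (SD, n = 3 each). MUC17 (chr7:101020072-101058745) had 346, 326 and 361 in hypoxia EVs and 99.9, 222 and 246 in normoxia EVs, against 4.87, 11.3 and 13.6 in hypoxia cells and 3.52, 4.96 and 4.81 in normoxia cells. The 6 cell libraries held 83 MUC17 reads in all, so its EV to cell ratio of 37.1 rests on few cell reads.

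The gel-forming mucins lie side by side at the end of the short arm of chromosome 11. MUC6, the mucin of gastric glands (chr11:1012821-1036706), had 1925, 1707 and 1170 units in hypoxia EVs and 1648, 1603 and 1202 in normoxia EVs, against 90.3, 72.6 and 48.8 in hypoxia cells and 42.8, 44.1 and 57.3 in normoxia cells. Hypoxia and normoxia libraries of MUC6 overlapped in both compartments. MUC5AC, secreted by airway goblet cells and the gastric surface (chr11:1157953-1201138), had 597, 588 and 507 in hypoxia EVs and 466, 382 and 567 in normoxia EVs, against 16.8, 11.3 and 8.92 in hypoxia cells and 18.1, 12.1 and 4.81 in normoxia cells. MUC5AC stood at 43.1 times its cell level, close to MUC4, with hypoxia and normoxia overlapping in both compartments.

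MUC2, the main intestinal mucin (chr11:1074875-1110511), averaged 410 ± 69.9 in hypoxia EVs, 247 ± 87.1 in normoxia EVs, 22.4 ± 11.03 in hypoxia cells and 11.01 ± 2.8 in normoxia cells (SD, n = 3 each). For MUC5B of airways and salivary glands (chr11:1223066-1262172) the means were 657 ± 48.1, 538 ± 97.4, 28.8 ± 1.0 and 24.1 ± 4.8 in the same 4 groups. MUC7 (chr4:70430492-70482997) was the lowest member, with 88.2, 51.8 and 68.1 in hypoxia EVs and 16.7, 57.7 and 64.5 in normoxia EVs. Its 6 cell libraries held 14 reads in all and 1 to 5 each, which is too few for a ratio.

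**Figure D1:**
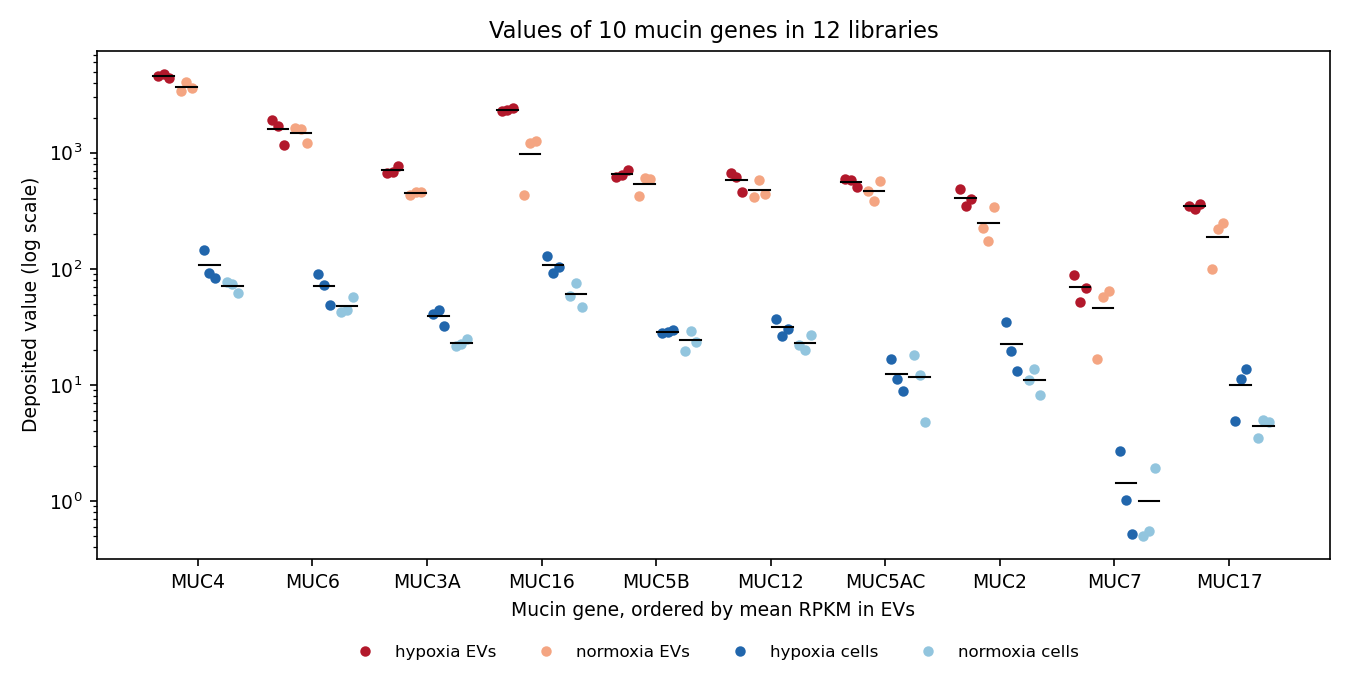
Deposited values (log scale) of the 10 mucin genes in each of the 12 libraries, ordered by mean RPKM in EVs. Points are libraries and bars the mean of 3; every EV point of a gene lies above every cell point of the same gene, and MUC16 shows 1 low normoxia EV library at 435.

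Per length, MUC4 and MUC6 stood apart from the other 8 members in EVs. MUC4 had 26.1 ± 0.8 RPKM in hypoxia EVs and 14.3 ± 2.6 in normoxia EVs, and MUC6 had 23.0 ± 5.6 and 14.3 ± 0.7 (SD, n = 3 each). Their ranges overlapped each other, and both were above MUC3A, the third, at 7.54 ± 0.60 in hypoxia EVs and 3.28 ± 0.62 in normoxia EVs. Below MUC16 in hypoxia EVs (6.46 ± 0.19 RPKM), each of MUC5B, MUC12, MUC2, MUC5AC, MUC7 and MUC17 overlapped its neighbour in the order, from 4.28 to 2.86 RPKM. In normoxia EVs every neighbouring pair from MUC3A down to MUC17 (1.11 RPKM) overlapped.

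The order in cells was much the same at a far lower level. MUC6 (0.845 ± 0.261 RPKM in hypoxia cells and 0.524 ± 0.069 in normoxia cells) and MUC4 (0.509 ± 0.170 and 0.308 ± 0.044) led there too, followed by MUC3A and MUC16, with MUC17 and MUC7 last. Across the 10 members, mean EV RPKM and mean cell RPKM had a Spearman rho of 0.95, a description over points that share gene length and mapping.

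To see how far the members stood above genes that HEK293 cells hardly express, each was set against 6595 near-silent genes, protein-coding genes whose mean over the cell libraries was 20 units or less. Pooled, those genes had 2.04 ± 0.07 RPKM in hypoxia EVs and 0.672 ± 0.412 in normoxia EVs (0.337, 0.547 and 1.13), against 0.182 ± 0.017 in hypoxia cells and 0.133 ± 0.015 in normoxia cells. Their density was thus 11.2 times that in cells under hypoxia and 5.06 times under normoxia. For near-silent genes of at least 8 kb of exon, closer to most members in length, this ratio was 13.0 and 5.66. The same ratio for the 10 members pooled was 33.1 and 27.7, and 26.9 and 19.5 without MUC4 and MUC6. A higher density in EVs than in cells was thus also seen for the pooled near-silent genes. They were chosen for low cell values, which favours a high ratio, as the members were chosen for high EV values. The members had the larger ratio. The limit of 20 units was not scaled to length. MUC4, MUC16, MUC6, MUC3A, MUC12 and MUC5B had cell means of 26.5 to 89.3 and would not count as near-silent. Their distance from that class is thus partly set by the limit.

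MUC4 had 11.9 to 13.3 times the near-silent density in hypoxia EVs and 14.4 to 33.7 times in normoxia EVs, against 2.23 to 3.49 in hypoxia cells and 2.24 to 2.38 in normoxia cells. For MUC6 the ranges were 7.96 to 14.01, 12.2 to 41.1, 3.30 to 5.44 and 3.32 to 5.22. Of the 6595 near-silent genes, 1 was above MUC4 and 2 above MUC6 in mean EV RPKM. The other 8 members lay from 1.10 times (MUC7) to 3.88 times (MUC3A) the near-silent density in hypoxia EVs, and 158 (MUC3A) to 1942 (MUC17) near-silent genes were above them. MUC17 and MUC5AC had 1.40 and 1.92 times the near-silent density in hypoxia EVs, yet 0.386 times each in hypoxia cells. MUC2 (0.961) and MUC5B (0.859) were also below 1 in hypoxia cells by mean. MUC7 had 1.48 times in hypoxia EVs, and its 5, 2 and 1 reads in the hypoxia cell libraries were too few for a ratio.

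**Figure D2:**
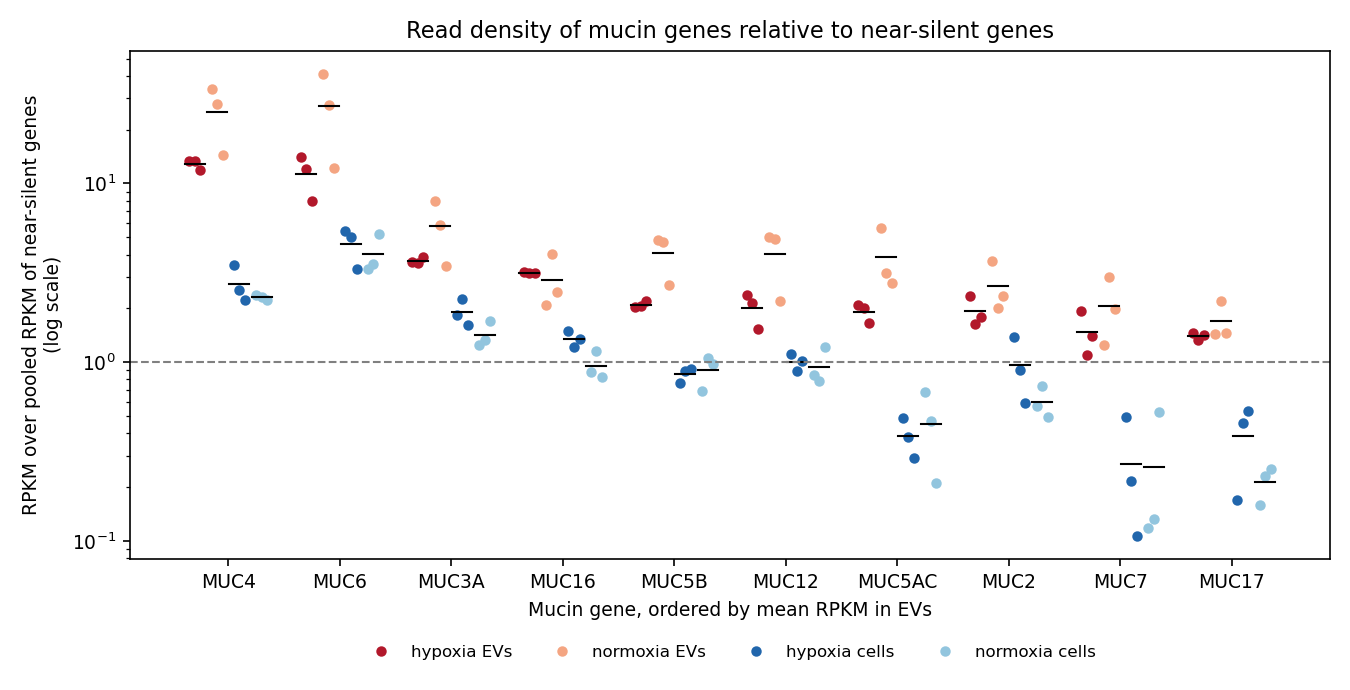
RPKM of each mucin gene divided by the pooled RPKM of near-silent genes in the same library (log scale), with the dashed line at equal density. Points are libraries and bars means of 3; MUC4 and MUC6 lie at 7.96 to 41.1 in the EV libraries, while the means of the other 8 genes in hypoxia EVs lie between 1.40 and 3.69.

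**Figure D3:**
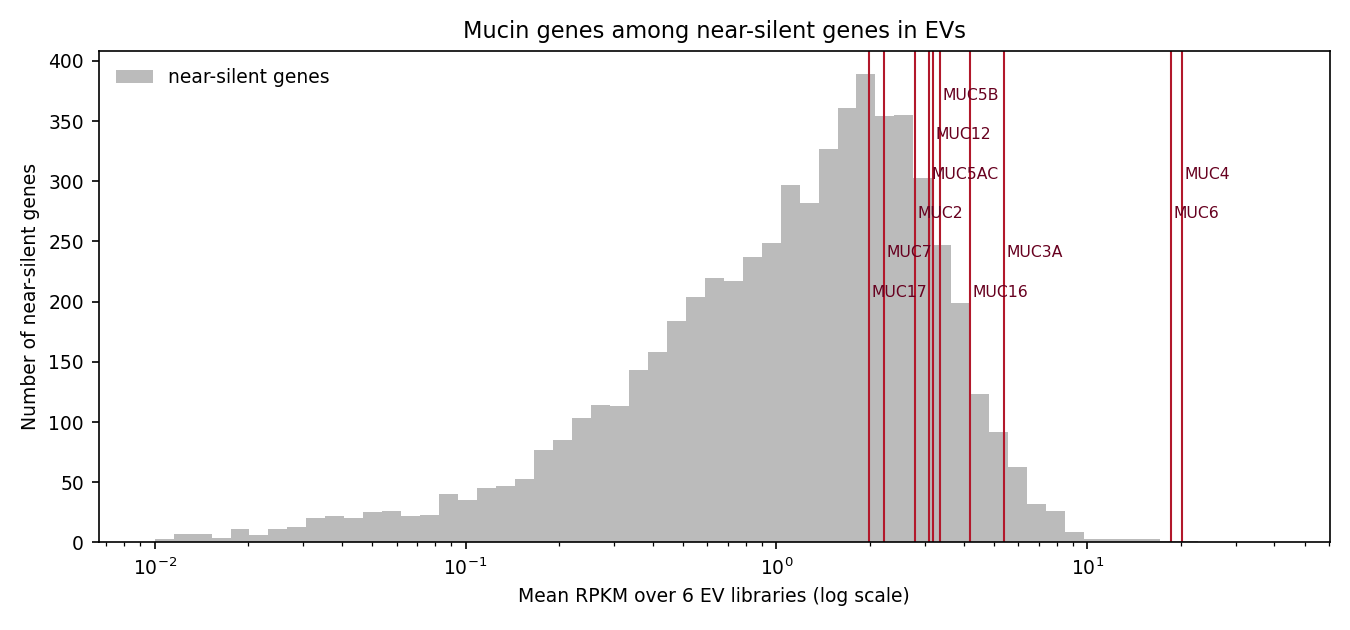
Number of near-silent genes by mean RPKM over the 6 EV libraries (log scale), with red lines at the 10 mucin genes. The median near-silent gene was at 1.12 RPKM and the 95th percentile at 4.32; MUC4 and MUC6 lie at the far right, 8 members lie within the bulk or its right side, and 578 genes under 0.01 RPKM are not drawn.

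Repeat content was measured as the percentage of the longest annotated transcript that lies in words of 20 bases occurring more than once in it. Its median over 19262 coding genes was 0%, and 195 genes had at least 20%. MUC12 had 79.2%, MUC17 63.5%, MUC4 56.4%, MUC5AC 53.2%, MUC5B 48.1%, MUC3A 39.5%, MUC2 36.1%, MUC16 21.2%, MUC6 19.9% and MUC7 14.6%. So 8 of the 10 members had at least 20%. The MUC2 transcript used is annotated as a processed transcript, so its share is the least certain.

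Repeat share did not order the members by read density in EVs. The pair with the highest density had 56.4% (MUC4) and 19.9% (MUC6), while MUC12, with the largest repeat share, had 4.09 ± 0.76 RPKM in hypoxia EVs and 2.29 ± 0.52 in normoxia EVs (SD, n = 3 each). Over the 10 members the Spearman rho of EV RPKM was -0.08 with repeat share, 0.30 with exon length and 0.32 with GC content, descriptions with few points. Near-silent genes with at least 20% repeats (101 genes) had 1.51 ± 0.07 RPKM in hypoxia EVs and 0.546 ± 0.328 in normoxia EVs, below all near-silent genes pooled. In cells this class was lower too, at 0.135 RPKM in hypoxia and 0.0979 in normoxia, against 0.182 and 0.133 for all near-silent genes. Its lower density was thus not particular to EVs. Near-silent genes of at least 8 kb of exon (348 genes) were the class most like the members in length. They had 1.33 ± 0.13 RPKM in hypoxia EVs and 0.410 ± 0.259 in normoxia EVs. The limit of 20 units, not scaled to length, holds such long genes to a lower density in cells.

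**Figure D4:**
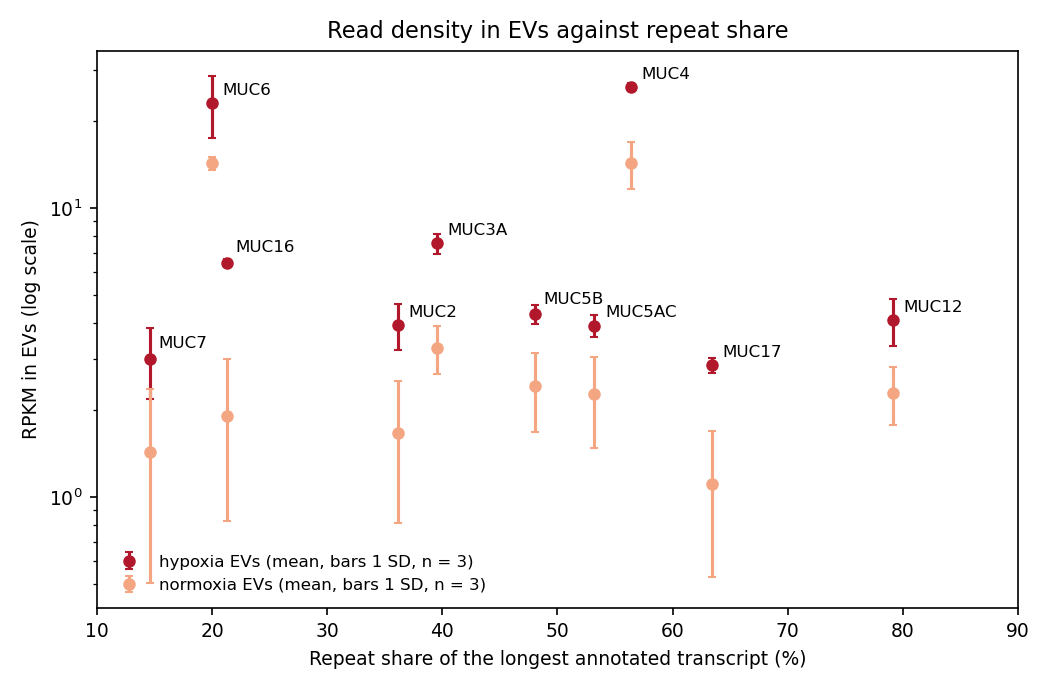
RPKM in EVs (log scale; mean, bars 1 SD, n = 3) against the repeat share of the longest annotated transcript for the 10 mucin genes. Hypoxia EVs are dark and normoxia EVs light; the densities of 26.1 (MUC4) and 23.0 (MUC6) in hypoxia EVs belong to genes at 56.4% and 19.9%, and MUC12 at 79.2% lies at 4.09.

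The expressed genes beside the mucins had ratios near 1 or a few times higher. AP2A2, an adaptor subunit of clathrin-coated pits that ends 576 bases from MUC6, had an EV to cell ratio of 0.941, and TOLLIP on the other side of the chromosome 11 cluster 1.10. ACHE and TRIM56 beside the chromosome 7 cluster had ratios of 3.18 and 1.31, and TNK2 beside MUC4 1.32. The neighbours of MUC7 and MUC16 and APOD beside MUC4 are hardly expressed in cells, and their ratios ran from 6.73 (APOD) to 18.7 (OPRPN). Of 3 annotated genes that overlap a member, MUC5B-AS1 and RN7SKP54 had a mean of 0 in both compartments. MUC12-AS1 had 21.9 units in EVs and 1.81 in cells, and whether the counting used strand was not stated.

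Coding genes outside the family whose log2(value + 1) closely followed the members' mean over the 12 libraries included SYT5 (Pearson r 0.995), FRMD1, MROH1 and CHD5 (r 0.993 each). They had repeat shares of at most 2.28%. Of 16809 coding genes compared, 680 had an r above 0.95, so the pattern was shared widely.

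In cells, MUC16 and MUC4 rose in hypoxia, and no member fell. MUC16 was higher by 0.84 on the log2 scale (SE 0.21, adjusted p 0.000929) and MUC4 by 0.56 (SE 0.20, adjusted p 0.0281) in limma's test on log2(value + 1) with Benjamini-Hochberg adjustment over 17260 genes. MUC7 and MUC17 were below the filter, a mean of at least 10, and were not tested. The other 6 members did not pass: MUC2 0.89 (SE 0.45, adjusted p 0.135), MUC3A 0.72 (SE 0.32, adjusted p 0.0800), MUC6 0.51 (SE 0.24, adjusted p 0.103), MUC12 0.43, MUC5B 0.26 and MUC5AC 0.19. Of all genes tested, 8.01% were called higher and 30.4% in either direction, so the share of members called in either direction (2 of 8) was near that of all genes.

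The 3 hypoxia cell libraries were all above the 3 normoxia cell libraries for MUC3A, MUC4 and MUC16, against 12.7% of all genes tested. The median change was 0.53 over the 8 members tested and -0.07 over all genes. The MUC4 call ended without hypoxia cell replicate 1 (log2 change 0.31, adjusted p 0.344) or normoxia cell replicate 3 (0.46, adjusted p 0.116), and the MUC16 call stood with each library left out. In one fit of all 12 libraries neither was called (adjusted p 0.310 for MUC4 and 0.356 for MUC16). Near-silent genes were also denser in hypoxia cells (0.182 RPKM) than in normoxia cells (0.133 RPKM). Scaled by them MUC4 was at 0.23 (adjusted p 0.404) and MUC16 at 0.51 (adjusted p 0.0463).

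In EVs, MUC16 was the only member called between hypoxia and normoxia, higher by 1.42 on the log2 scale (SE 0.29, adjusted p 0.0133, limma over 27904 genes). MUC17 at 0.96 (SE 0.32, adjusted p 0.0507), MUC3A at 0.65 (SE 0.22, adjusted p 0.0565) and MUC2 at 0.77 (SE 0.29, adjusted p 0.0707) just missed the threshold of 0.05. The other 6 ran from 0.09 (MUC6, adjusted p 0.778) to 0.75 (MUC7, adjusted p 0.377), with MUC4 at 0.32 (adjusted p 0.261). Called higher were 5.68% of all genes, and 12.3% were called in either direction, so 1 of 10 members was near the share of all genes. The members had been chosen for high EV values, which favours genes that are high in hypoxia EVs.

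On the deposited scale, hypoxia EVs lay above normoxia EVs in all 3 libraries for 6 members, MUC2, MUC3A, MUC4, MUC5B, MUC16 and MUC17, against 23.4% of all genes. The choice of members for high EV values favours such a count, so nothing is read from it. The median change of the 10 members was 0.49, below the median of 0.60 over all genes tested. That order depended on low genes: with a filter of 50, which all 10 members passed, the median over 15260 genes was -0.15. The MUC16 call ended without normoxia EV replicate 2 (log2 change 1.66, adjusted p 0.105) or hypoxia EV replicate 3 (1.39, adjusted p 0.0727), fits that called 7 and 36 genes in all, against 3432 with all libraries. The log2 change of MUC16 was 0.91 without normoxia EV replicate 1, the library with the low value and the lowest near-silent density. Values and calls in EVs depended on the scale: with equal library totals the median of all genes was 1.21 and 9 members were called (all but MUC7). Scaled by near-silent genes, the median of all genes was -0.69, that of the members -0.73, and no member was called, with MUC16 at 0.20 (adjusted p 0.847), MUC4 at -0.89 and MUC6 at -1.12. That scale divides by the near-silent density, 2.04 RPKM in hypoxia EVs against 0.672 in normoxia EVs.

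**Figure D5:**
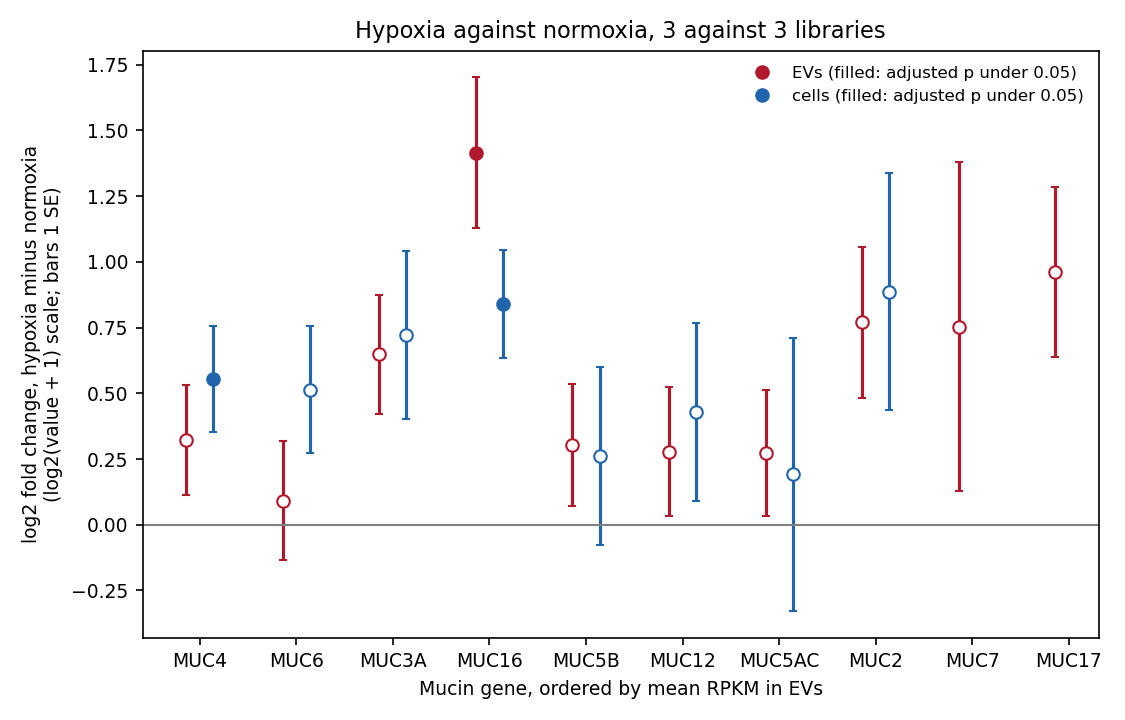
Log2 fold change of hypoxia minus normoxia with 1 SE, for EVs (red, left) and cells (blue, right), on the log2(value + 1) scale with deposited scaling. Filled points passed an adjusted p of 0.05 in limma's test (MUC16 in EVs; MUC4 and MUC16 in cells); MUC7 and MUC17 were not tested in cells, and signs in EVs depend on the scaling.

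The difference of the hypoxia responses, EVs minus cells, passed the test for 0 of 10 members, against 2.31% of 24171 genes. MUC7 and MUC17, with cell means of 1.21 and 7.19, entered that fit through their EV values, so 8 members had cell values that could bear on a difference. None of the 10 had an unadjusted p under 0.05, and edgeR's and DESeq2's tests called 0 as well. For MUC16 the difference was 0.58 (SE 0.42, adjusted p 0.419) and for MUC6 -0.42 (SE 0.34, adjusted p 0.468), limma's interaction over 12 libraries. The differences were -0.23 for MUC4 (SE 0.26), -0.15 for MUC12, -0.12 for MUC2, -0.07 for MUC3A, 0.04 for MUC5B and 0.08 for MUC5AC. For MUC7 (0.50, SE 1.06) and MUC17 (0.04, SE 0.65) the errors were the widest. A response of MUC16 that differs between EVs and cells was not detectable at this spread. The interaction takes 1 spread per gene over EV and cell libraries together. With that shared spread, hypoxia against normoxia in cells gave 84 calls over all genes, against 5254 from the cell libraries alone.

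Other mucin genes with reads in cells had far lower EV to cell ratios than MUC4. The members were chosen for high EV values, so this difference follows in part from the choice. The highest ratios among these other genes were 5.03 (EMCN) and 4.81 (MUC13), both at low values. MUC19, MUC1 and MUC20 had EV values of 3.52, 3.89 and 4.10 times their cell values, OVGP1 1.46, MCAM 1.04 and CD164, a sialomucin expressed widely, 0.210. In cells, 1 of the 6 tested of 11 rose in hypoxia, MUC1 (log2 change 1.07, SE 0.34, adjusted p 0.0108), and 2 fell, CD164 (-0.27, adjusted p 0.00122) and MCAM (-0.25, adjusted p 0.0227). In EVs, 1 of 8 tested rose, MUC20 (1.59, SE 0.45, adjusted p 0.0311), and none fell. Shares over all genes were 8.01% higher and 30.4% in either direction in cells, and 5.68% and 12.3% in EVs. The median change of the list was 0.33 in cells, against -0.07 for all genes, and 0.81 in EVs, against 0.60 for all genes.

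The enzymes that start and extend mucin-type O-glycans were expressed in cells, as 19 of the 24 listed had a mean of at least 10 there. In hypoxia cells GALNT16, a transferase of the first sugar, rose (0.31, adjusted p 0.0345) and C1GALT1C1, the chaperone of the core 1 enzyme, fell (-0.84, adjusted p 9.41e-05), and the list's median was -0.04. In EVs none of 24 passed limma's test, with a median of 0.50. Of the list of mucin folding, packaging and granule release, 0 of 4 tested passed in cells and 1 of 9 in EVs, UNC13D, a priming factor of granule release (1.46, SE 0.41, adjusted p 0.0297). Over all genes, 30.4% were called in either direction in cells and 12.3% in EVs.

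Summed over each list, markers of mucus-producing cells were higher in EVs than in cells as well. Near-silent genes pooled were too, at 11.2 times their RPKM in cells under hypoxia and 5.06 times under normoxia. The goblet, gastric, airway and salivary markers all had means under 10 in cells, so no cell type is read from their sums. Single markers went the other way in normoxia. AGR2 averaged 1.39 in normoxia EVs against 3.87 in normoxia cells, and GKN2 1.44 against 2.58. These rest on few reads, 27 for AGR2 and 17 for GKN2 over the 6 EV libraries. Summed over the 9 goblet markers, values were 411 to 525 in hypoxia EVs and 147 to 412 in normoxia EVs, against 36.2 to 50.9 in hypoxia cells and 23.6 to 34.2 in normoxia cells. The 6 gastric markers summed to 252 to 302, 30.9 to 188, 19.1 to 24.7 and 9.06 to 15.4 in the same groups, and the 8 airway and salivary markers to 275 to 378, 88.0 to 193, 9.19 to 30.9 and 7.70 to 14.9. None of these markers was at 0 in all 3 hypoxia EV libraries, while STATH was at 0 in all 3 normoxia EV libraries and all 3 normoxia cell libraries. In hypoxia EVs STATH had 0, 0 and 20.2, so that difference rests on 8 reads of 1 library. The epithelium marker KRT20 was at 0 in all 3 normoxia EV libraries. Between hypoxia and normoxia EVs, 0 of 8 goblet, 1 of 4 gastric (GKN1) and 1 of 5 airway and salivary markers tested (BPIFB1) rose, as did 3 of 8 markers of epithelium in general (KRT19, ELF3 and KRT5), and none fell. Of all genes tested in EVs, 5.68% were called higher. The lists are short, and EV calls over all genes fell to 7 without normoxia EV replicate 2, so nothing is read from these counts. The part of such transcripts in the mucin values was not tested.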

How the data were processed

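Total RNA libraries of HEK293 cells and of their EVs were analysed from 1 table of deposited signal values per gene, 12 libraries in 4 groups of 3 by their titles. The authors scaled the read counts of each library by its own constant, as the values themselves show: 100% of the deposited values were whole multiples of a step within a tolerance of 0.01 reads. Bowtie (0.12.2) and DESeq2 (1.30.1) are named as tools, with hg38 and GRCh38 as builds, per the submitters' processing notes. The sources used here do not give the counter, the annotation or the treatment of reads that map to several places. Stranded total RNA kits were used, per the labels' protocols.

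Of the 57773 genes, 52338 matched GENCODE release 29 (GRCh38), which gave names, positions, exon lengths and transcripts. RPKM and repeat shares were computed with Python 3.11.15 and pandas 2.3.3. Copies of a tandem unit were found as the smallest shift between 9 and 600 bases at which at least 80% of the bases matched, among shifts that covered at least 80% of the best. Hypoxia was tested against normoxia with limma 3.58.1 (trend) on log2(value + 1) over genes averaging 10 or more, in the 6 cell and the 6 EV libraries separately, and as an interaction over all 12, adjusted over all genes tested at 0.05. Fold changes on that scale understate the change of low genes. Alternatives were pseudocounts of 0.5 and 5, filters of 50 and none, TMM, equal totals, a replicate block, edgeR 4.0.16, DESeq2 1.42.0, 1 fit of all libraries, and each library left out. The count tests used the recovered reads. All tools were run on simulated reads with a fixed spread and a small set of changed genes. That simulation held no shift shared by most genes, so it does not bear on the choice of scale in EVs. Scaling by near-silent genes, and the density without MUC4 and MUC6, were chosen after seeing the data. The rule names all 10 members in each comparison, and from other lists those called, those with high levels or the nearest neighbours. Members and lists were chosen with earlier results of these data known. Chi-square per degree of freedom between libraries of a group was 5.27 to 14.8, above counting noise. Intervals from reads and floors cover counting error only.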

Additional observations from a re-analysis of the deposited data

How the results depend on the processing

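Hypoxia against normoxia in cells gave 5254 calls over all genes, 8113 with near-silent scaling and 84 in one fit of all 12 libraries. Of the members, 2 were called, against 1 with near-silent scaling and 0 in that fit, and 1 to 3 when a library was left out. In EVs, 3432 genes were called, against 5311 with a pseudocount of 5, 7627 with near-silent scaling, 5409 with the replicate block and 8238 in one fit of all 12 libraries, and 7 (without normoxia EV replicate 2) to 10078 (without normoxia EV replicate 3) when a library was left out. The members called in EVs were 1, against 3 with a pseudocount of 5, 4 with a filter of 50, 9 with equal totals, 0 with near-silent scaling, 4 with the replicate block and 2 in the fit of all 12 libraries, and 0 to 4 with a library left out. The interaction gave 559 calls, against 873 with a filter of 50, 105 with no filter, 1693 with TMM, 1664 with edgeR and 2189 with DESeq2, and 38 (without hypoxia cell replicate 2) to 5438 (without normoxia EV replicate 3) with a library left out. No alternative called a member there. The cause of these changes was not tested.

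With near-silent scaling the log2 changes of hypoxia in EVs were -0.44 for MUC2, -0.57 for MUC3A, -0.89 for MUC4, -0.94 for MUC5AC, -0.91 for MUC5B, -1.12 for MUC6, -0.43 for MUC7, -0.93 for MUC12 and -0.25 for MUC17, and in cells -0.11 for MUC5AC and -0.060 for MUC5B. None of these was called. Leaving out a library gave -0.29 to 0.57 for MUC5AC in cells and -0.057 to 0.30 for MUC6 in EVs.

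The summed members' log2 ratio of EVs over cells was 4.85, and 5.26 with totals that left out the 10 highest genes. Pooled member density over near-silent density was 4.19 in hypoxia EVs, 7.34 in normoxia EVs, 1.41 in hypoxia cells and 1.15 in normoxia cells. With near-silent genes cut at a mean of 5 it was 5.47, 10.0, 2.93 and 2.49, without MUC4 and MUC6 it was 2.43, 3.38, 1.01 and 0.80, and in cells it was 0.83 and 0.64 with genes cut at a mean of 50. Deviations from the group mean had correlations of -0.12 to 0.061 between same-numbered libraries of different groups, so the numbers were not taken to pair them. The replicate block added 3 member calls in EVs and none elsewhere.

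EV libraries held 3259453 to 7001767 reads, which limits MUC7 and MUC17 most. Multi-mapping of repeat reads could not be checked from the deposited values.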
